A study of Homo sapiens with 6 samples.

Results

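Polyamines (putrescine, spermidine and spermine) are small cationic metabolites made from ornithine, and ornithine can come from arginine or from glutamate. The 10 genes described here encode enzymes and regulators of these linked pathways: ODC1, AMD1, SRM, SMS, SAT1, ARG2, ASS1, ASL, OAZ1 and AZIN1. They were chosen by gene symbol, and all 10 were found among the 28265 gene rows of the count tables and were among the 13949 genes with enough reads to be tested. The RNA came from MDA-MB-231, a breast cancer line of the triple-negative class, and from MDA-MB-231GlnIND, its glutamine-independent derivative, with 3 polyA-selected libraries per group. Parental cells grew in RPMI medium containing glutamine and 10% fetal bovine serum, and GlnIND cells for more than 6 weeks in glutamine-free RPMI medium and 10% dialyzed serum. Glutamine supply, serum type and cell population therefore differed together and cannot be told apart. The labels name no separate clones or cultures, so p-values reflect the spread among the 6 libraries at hand, and that spread may be technical.

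In the textbook pathway ornithine decarboxylase (ODC1) makes putrescine, S-adenosylmethionine decarboxylase (AMD1) supplies the aminopropyl donor, and spermidine synthase (SRM) and spermine synthase (SMS) add that group in turn. Antizyme (OAZ1) binds ODC1 protein and targets it for degradation, and its translation needs a polyamine-dependent frameshift, while the antizyme inhibitor AZIN1 frees ODC1. SAT1 acetylates spermidine and spermine for breakdown or export, mitochondrial arginase (ARG2) cleaves arginine to ornithine and urea, and ASS1 and ASL rebuild arginine from citrulline and aspartate. Several of these proteins are strongly controlled in translation and stability, which RNA counts do not show.

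Counts summed to 18256219 to 24594248 per library. Read counts scaled to library size with composition factors (CPM, with TMM factors) are given below as mean ± SD with n = 3 per group. A gene was called when the Benjamini-Hochberg adjusted p of edgeR's quasi-likelihood test was under 0.05, and "rose" and "fell" refer to GlnIND relative to parental cells. Markers of the line were present in both groups, with VIM at 3979 and 6077 CPM and CD44 at 969 and 785 CPM in parental and GlnIND cells. The 6 line markers summed to 7892 to 8468 CPM in parental and 10510 to 10700 CPM in GlnIND libraries, a sum that VIM dominates. Among these 6, VIM and AXL rose, CD44, CAV1 and KRT18 fell (KRT18 from 284.5 to 103.8 CPM), and MSN was not called. Of 5 receptor and luminal genes, 1 rose, 1 fell and 1 was not called, and ESR1 and PGR had too few reads to test. CD3E was at 0 counts in every library, PTPRC had 14 counts in all 6, and CDH5 had 6. Of 4 leukocyte markers 3 were not tested for low counts. CD68 was well expressed, at 178.1 and 176.6 CPM in parental and GlnIND cells, and was not called. Of 3 endothelial markers 1 rose and 1 was not called, and of 4 fibroblast markers 2 rose (COL1A1 and PDGFRB) while DCN had 3 counts in all. The fibroblast markers summed to 5.03 to 7.38 CPM in parental and 14.8 to 16.6 CPM in GlnIND libraries, and their part in the results below was not tested. Across genes, the deviation of parental 1 from its group mean followed the GC content of transcripts with a Spearman rho of -0.516, against 0.386 and 0.411 for parental 2 and 3 and -0.133 to 0.084 for the GlnIND libraries (description over 13545 genes).

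GlnIND cells had more RNA for SAT1 (1.79-fold), ARG2 (2.56-fold) and ASS1 (2.48-fold), and less for SRM (1.76-fold lower in GlnIND). In bulk RNA a change in the share of cells that express a gene and a change in RNA per cell cannot be told apart. ODC1, AMD1 and OAZ1 fell by smaller amounts, and SMS, ASL and AZIN1 were not called. In all 3 genes rose and 4 fell, that is 7 of 10, where 56.3% of all tested genes were called (28.4% higher, 27.9% lower). More than 2-fold changes were called at 2 of the 10, against 15.1% of all genes. The median log2 fold change of the 10 genes was -0.16, beside 0.03 for all tested genes. The CPM ranges of the groups were apart at 7 of 10 genes, 3 higher and 4 lower in GlnIND cells, while over all genes they were apart at 65% (33.7% higher, 31.3% lower). The count of calls is therefore no result about these genes as a group, and the account below is of single genes.

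**Figure D1:**
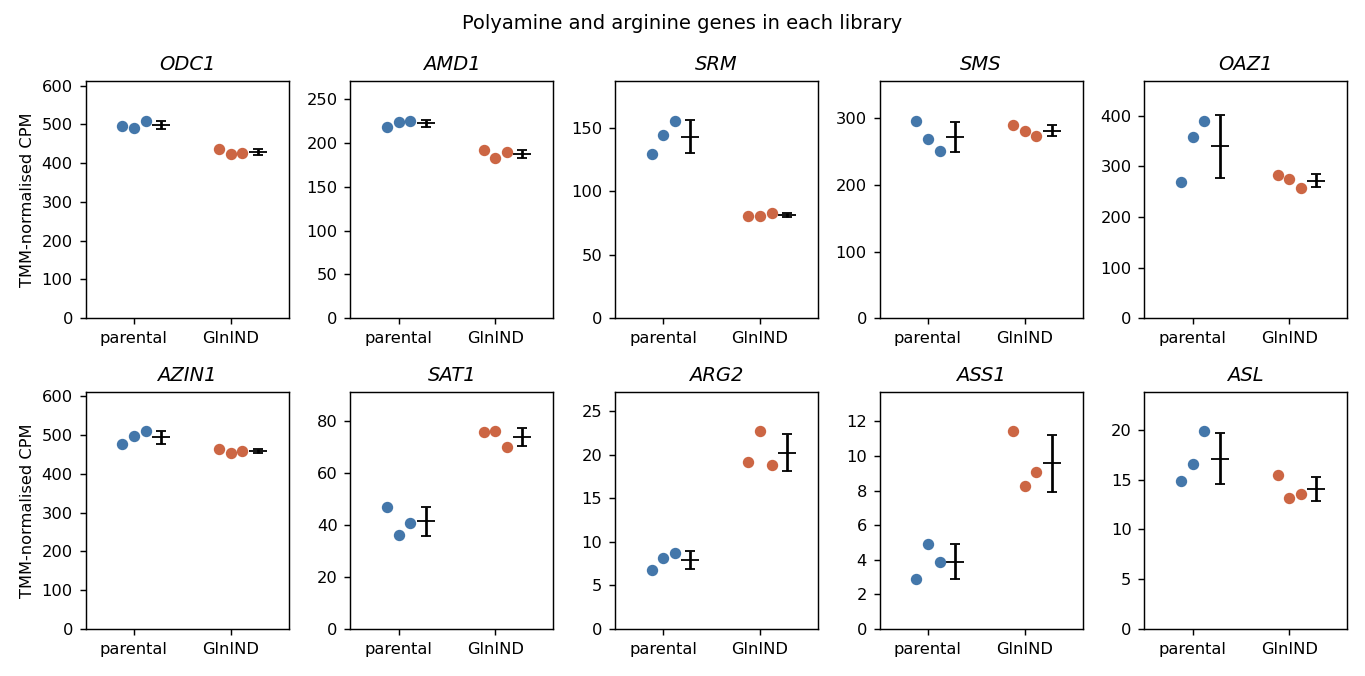
TMM-normalised CPM (vertical axes from 0, a scale for each gene) of the 10 genes in the 3 parental and 3 GlnIND libraries; points are libraries, the dash and bar to their right the mean ± SD. SAT1, ARG2 and ASS1 stand higher and SRM, ODC1, AMD1 and, narrowly, AZIN1 lower in all 3 GlnIND libraries. For OAZ1 parental 1 sits apart from the other parental libraries.

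The calls of the small changes rested on the scaling. With library totals alone the median log2 difference over all genes moved from 0.03 to 0.18, and with upper-quartile factors to 0.12. The genes called higher and lower were then 4 and 1 of the 10 with totals and 3 and 2 with upper-quartile factors, where 58.5% and 57% of all genes were called. Over all genes the higher and lower calls were 5356 and 2810, and 4749 and 3204, beside 3965 and 3888 with TMM. Each scaling sets 1 factor per library and so shifts nearly all genes alike. Differences from the all-gene median therefore moved by less than 0.01 between the scalings by construction, which is no test of the small changes. Measured from that median, the log2 difference was 1.33 for ARG2, 1.28 for ASS1, 0.81 for SAT1, 0.02 for SMS, -0.14 for AZIN1, -0.25 for ODC1, -0.28 for AMD1, -0.32 for ASL, -0.35 for OAZ1 and -0.85 for SRM.

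Levels of different genes were compared only per kilobase of exon sequence (union of GENCODE basic exons). In parental cells OAZ1 stood highest at 295.7 CPM per kb, followed by ODC1 (168 CPM per kb), SMS (148), SRM (113), AZIN1 (101.5), AMD1 (63.9), SAT1 (24.6), ASL (7.38), ARG2 (3.86) and ASS1 (1.88). The ranges of SRM and AZIN1, next to each other in this order, overlapped between parental libraries (102 to 123 and 97.8 to 104.7 CPM per kb). In GlnIND cells SMS (153 CPM per kb) stood above ODC1 (145), AZIN1 (94.3) above SRM (64.2) and ARG2 (9.9) above ASL (6.06). The GlnIND ranges of these 3 pairs did not overlap, and the ladder from OAZ1 at the top to ASS1 at the bottom was otherwise as in parental cells.

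The genes that rose belong to polyamine acetylation and to the ends of the arginine pathway. For these genes and SRM, which fell most of the 10, the bases before annotated starts are shown. Sequences are from RefSeq (GRCh38.p14), while the counts were made on hg19. Whether these genes share any control was not tested. RefSeq promoters were found for 9 of the 10 genes, as 13 windows, since some genes had more than 1 annotated start. Matches below are named by gene, so they cannot be set directly against a share of windows. Each stretch is the longest run of the 250 bases before the start that lies in no annotated exon of the gene. The first bases after the gene's other annotated starts also counted as exon. Capitals mark the matches to 6 short motifs searched on both strands.
SAT1, chrX:23782923-23783172, strand +: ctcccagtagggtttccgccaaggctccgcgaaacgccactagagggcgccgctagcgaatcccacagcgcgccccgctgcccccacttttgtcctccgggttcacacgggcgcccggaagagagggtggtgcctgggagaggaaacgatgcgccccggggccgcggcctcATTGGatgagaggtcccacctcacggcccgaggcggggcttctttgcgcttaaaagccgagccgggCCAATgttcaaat
ARG2, chr14:67619670-67619797, strand +: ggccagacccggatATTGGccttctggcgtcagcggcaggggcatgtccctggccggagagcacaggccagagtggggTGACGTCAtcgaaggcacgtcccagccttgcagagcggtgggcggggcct
ASS1, chr9:130444757-130444928, strand +: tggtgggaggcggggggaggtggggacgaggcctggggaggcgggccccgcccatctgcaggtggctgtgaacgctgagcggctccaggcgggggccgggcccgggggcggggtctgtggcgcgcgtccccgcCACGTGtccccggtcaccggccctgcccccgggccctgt
SRM, chr1:11060025-11060268, strand -: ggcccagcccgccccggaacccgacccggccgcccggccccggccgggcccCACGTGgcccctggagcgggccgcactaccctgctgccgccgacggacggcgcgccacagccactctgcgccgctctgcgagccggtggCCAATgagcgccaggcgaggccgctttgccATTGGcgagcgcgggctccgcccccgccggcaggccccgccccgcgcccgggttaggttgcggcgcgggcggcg
The motifs were the E-box CACGTG (bound by MYC and related factors), the cyclic AMP response element TGACGTCA (bound by CREB and ATF family factors), the element TGATGCAA that ATF4 and C/EBP factors can bind, the antioxidant element core TGACNNNGC, the CCAAT box and the TATA box TATAAA. ARG2 held TGACGTCA at 172 and 64 bases before the start, the nearer match lying outside the stretch shown. Over all 35116 windows of 250 bases 1.65% held that motif. An E-box was found in the window of SRM at 199 bases, in that of the ASS1 start shown here at 71 bases (the other ASS1 start had no motif match) and in that of a further ODC1 start at 29 bases, against 6.34% of all windows. The only matches of SAT1 were CCAAT boxes, in forward or reverse orientation. A CCAAT box, with or without other motifs, was present in 32% of all windows. It was also found in windows of ARG2, SRM, AMD1, SMS, ASL and OAZ1. TGATGCAA (0.772% of windows), TGACNNNGC (10.9%) and TATAAA (10.7%) had no match in the windows of the members, and no 2 matches overlapped. These letters are a description and do not show binding.

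SAT1, the enzyme that commits spermidine and spermine to export or oxidation, was at 47.2, 36.3 and 40.8 CPM in parental 1, 2 and 3. In GlnIND 1, 2 and 3 it was at 76, 76.2 and 70.2 CPM. All GlnIND libraries were above all parental libraries. The log2 fold change was 0.84 (edgeR adjusted p = 8.75e-05, SE 0.1), from 41.4 ± 5.45 to 74.1 ± 3.43 CPM (SD, n = 3 each). The 40 neighbouring tested genes on chromosome X had a median of 0.31 on the log2 scale, and after removal of that shift the SAT1 value was 0.53 (adjusted p = 0.00176). Whether the neighbourhood has a part in the result was not tested.

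ARG2 supplies ornithine, the substrate of ODC1, inside mitochondria. Its level was 6.8, 8.18 and 8.73 CPM in the parental libraries and 19.2, 22.7 and 18.9 CPM in the GlnIND libraries. All GlnIND libraries stood far above the highest parental library. The log2 fold change of 1.36 (edgeR adjusted p = 2.87e-05, SE 0.14) led the 10 genes, and 6.63% of all tested genes had a higher value. ARG2 was also the member that passed a test for changes beyond 1 on the log2 scale (glmTreat adjusted p = 0.041, with 7.21% of all genes called). ARG2 overlaps the rows VTI1B and GPHN in the RefSeq order. They held 12891 and 5044 counts beside 1913 for ARG2, and reads in shared sequence may be counted for neither gene. ARG1, the liver arginase, had 1 count in all 6 libraries.

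ASS1, which joins citrulline and aspartate and is the step that many arginine-dependent tumours lack, was the scarcest of the 10. It was at 2.88, 4.92 and 3.85 CPM in parental cells, from 58 to 86 counts a library. GlnIND cells had 11.4, 8.24 and 9.06 CPM, from 198 to 255 counts. The groups did not overlap, and the log2 fold change was 1.31 (edgeR adjusted p = 0.000548, SE 0.21). The value lay between 1.12 without parental 1 and 1.49 without parental 2. ASS1 has processed pseudogene copies in the genome, and the treatment of multiply mapped reads was not given in the sources used here, so its level is uncertain.

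ASL, which releases arginine and fumarate from the ASS1 product, did not rise with ASS1. It was at 14.8, 16.6 and 19.9 CPM in parental and 15.4, 13.2 and 13.5 CPM in GlnIND libraries, and the groups overlapped. Its log2 fold change was -0.29 with a 95% interval from -0.58 to 0.01 (edgeR adjusted p = 0.0931). Neighbouring genes had a median of -0.50. With their shift removed ASL stood at 0.22 (adjusted p = 0.202), with the GC trend removed at -0.51 (0.00914) and without parental 1 at -0.39 (0.00195).

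SRM, the enzyme that makes spermidine from putrescine, had the largest fall of the 10. Parental libraries were at 129, 144 and 156 CPM. GlnIND libraries were at 80.3, 80.7 and 83 CPM, all below the lowest parental library. The log2 fold change was -0.82 (edgeR adjusted p = 2.29e-05, SE 0.078), and 8.23% of tested genes had a lower value. SRM remained called with every scaling, with each library left out, after removal of the GC trend (-1.06) or of the neighbour shift (-0.65), and was not called by glmTreat.

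SMS, the next enzyme, which turns spermidine into spermine, was at 296.4, 268 and 250.5 CPM in parental libraries and 290.1, 280.2 and 273 CPM in GlnIND libraries. The groups overlapped, with a log2 fold change of 0.05 and a 95% interval from -0.11 to 0.21 (edgeR adjusted p = 0.589). SMS lies on chromosome X like SAT1, and its 40 neighbours had a median of 0.38. With that shift removed SMS was at -0.33 (adjusted p = 0.00453), while with library totals alone it was at 0.20 (0.0224) and without parental 1 at 0.11 (0.0438). No direction can therefore be given for SMS.

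ODC1 and AMD1, the decarboxylases that feed both synthases, fell slightly. ODC1 was at 494.5, 490.6 and 510 CPM in parental and 436, 424 and 425 CPM in GlnIND libraries. AMD1 was at 218, 224 and 226 CPM in parental and 192, 183 and 189.5 CPM in GlnIND libraries. All GlnIND libraries lay below all parental libraries for both genes. The log2 fold changes were -0.22 for ODC1 (edgeR adjusted p = 0.00816, SE 0.056) and -0.24 for AMD1 (edgeR adjusted p = 0.00517, SE 0.058). Under library totals alone they were -0.06 and -0.09 and no longer called (adjusted p = 0.33 and 0.202), and ODC1 was also not called with upper-quartile factors (-0.13, adjusted p = 0.0743) or with the shift of its neighbours removed (-0.03, adjusted p = 0.692). AMD1, at 38.2% transcript GC the lowest of the 10, stood at -0.01 with the GC trend removed (adjusted p = 0.872).

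OAZ1, the antizyme that removes ODC1 protein, was at 269, 358 and 391 CPM in parental libraries and 284, 275 and 257.5 CPM in GlnIND libraries. Parental 1 fell inside the GlnIND range, so the groups overlapped. The log2 fold change of -0.32 (edgeR adjusted p = 0.0441, SE 0.12) was just past the threshold. Without parental 1 it was -0.47 (adjusted p = 1.08e-12), and without parental 2, parental 3, GlnIND 1, GlnIND 2 or GlnIND 3 the call was lost (-0.36 to -0.23, adjusted p = 0.0784 to 0.136). It was also lost with upper-quartile factors (-0.23, adjusted p = 0.14), with totals alone (-0.17, adjusted p = 0.278), with limma-voom (-0.30, adjusted p = 0.0567) and with the neighbour shift removed (-0.15, adjusted p = 0.334). The call held with RLE factors (-0.33, adjusted p = 0.0312), with DESeq2 (-0.34, adjusted p = 0.0175) and with the GC trend removed, where the value was -0.51 (adjusted p = 0.00518).

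AZIN1, which competes with ODC1 for antizyme, was at 476, 497 and 509 CPM in parental and 464, 454 and 459.5 CPM in GlnIND libraries. The groups were narrowly apart, yet the log2 fold change of -0.11 (95% interval -0.24 to 0.02) was not called (edgeR adjusted p = 0.144). It was called without parental 1 (-0.14, adjusted p = 0.00392) and had the opposite sign with totals alone (0.05), after removal of the GC trend (0.01) and after removal of the neighbour shift (0.04). With parental 1 left out, all 10 genes were called, 4 higher and 6 lower, where 65.2% of all tested genes were called. The biological coefficient of variation over all genes was then 4.57%, beside 9.79% with all 6 libraries.

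**Figure D2:**
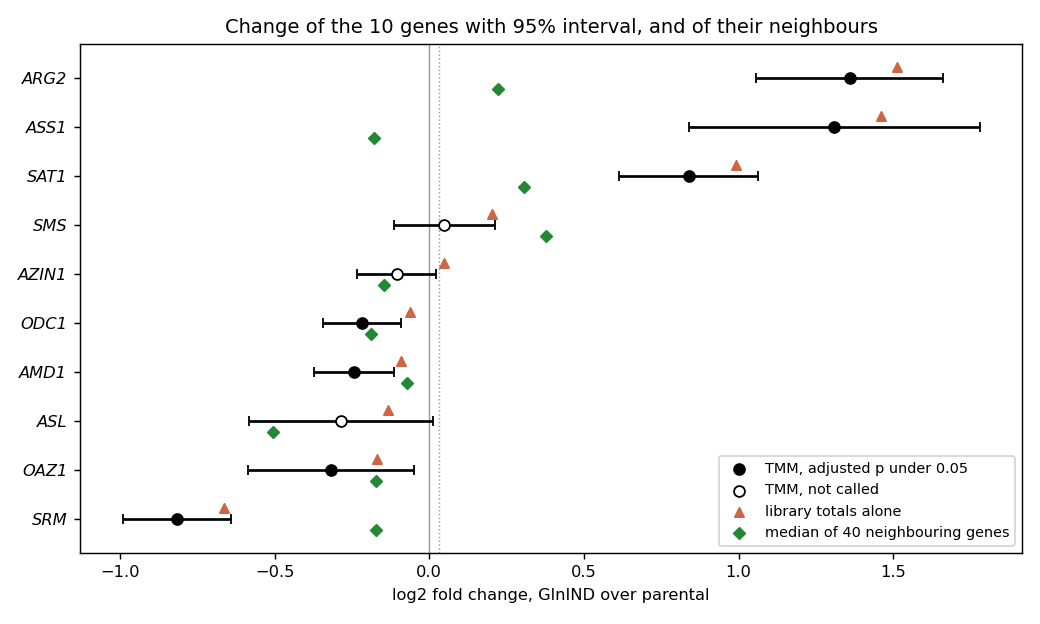
Log2 fold change, GlnIND over parental, of the 10 genes with TMM factors (circles with 95% interval, filled where the adjusted p was under 0.05), with library totals alone (triangles), and the median of the 40 neighbouring tested genes (diamonds). The dotted line is the median of all genes at 0.03. The intervals of ARG2, ASS1, SAT1, SRM and AMD1 lie wholly to 1 side of 0 and of their neighbours' median, and AMD1 and the 5 remaining genes lie between -0.32 and 0.05.

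Ratios of counts within a library do not depend on the scaling, and 8 pairs were compared, chosen with the results known. With 3 libraries a group the smallest exact permutation p is 0.1, so these ratios are described by their values. SAT1 counts relative to ODC1 counts were 0.0831 ± 0.011 in parental and 0.173 ± 0.00741 in GlnIND cells (SD, n = 3 each), 2.09-fold higher. ARG2 relative to ODC1 rose 2.99-fold in the mean, from 0.0137 to 0.0171 in parental libraries to 0.044 to 0.0536 in GlnIND libraries.

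The synthases also shifted relative to each other. SMS counts were 2.3, 1.86 and 1.61 times the SRM counts in the parental libraries and 3.62, 3.47 and 3.29 times in the GlnIND libraries, a 1.82-fold difference. ASS1 counts were 0.194, 0.297 and 0.194 of the ASL counts in parental and 0.741, 0.627 and 0.67 in GlnIND libraries, 3.03-fold higher. The AZIN1 to ODC1 ratio was also apart between groups, at 0.992 ± 0.0259 and 1.07 ± 0.00802 (SD, n = 3 each). All 5 ratios had the smallest exact permutation p possible, 0.1 (two-sided, 0.16 after Benjamini-Hochberg adjustment over the 8 pairs).

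The remaining ratios overlapped between groups. AMD1 counts relative to ODC1 counts were 0.447 ± 0.00854 and 0.439 ± 0.00712, the closest pair (exact permutation p = 0.4, adjusted p = 0.457, SD, n = 3 each). The ratios were not adjusted for GC content. With the GC trend removed the log2 fold changes of AMD1 and ODC1 were -0.01 and -0.25, so these genes no longer changed alike. OAZ1 relative to ODC1 was 0.681 ± 0.119 and 0.635 ± 0.0256 (exact permutation p = 0.6, adjusted p = 0.6), and AZIN1 relative to OAZ1 was 1.49 ± 0.247 and 1.69 ± 0.0823 (exact permutation p = 0.3, adjusted p = 0.4; SD, n = 3 each). Parental 1 set the spread of both OAZ1 ratios, at 0.545 for OAZ1 to ODC1 beside 0.73 and 0.767 in parental 2 and 3.

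**Figure D3:**
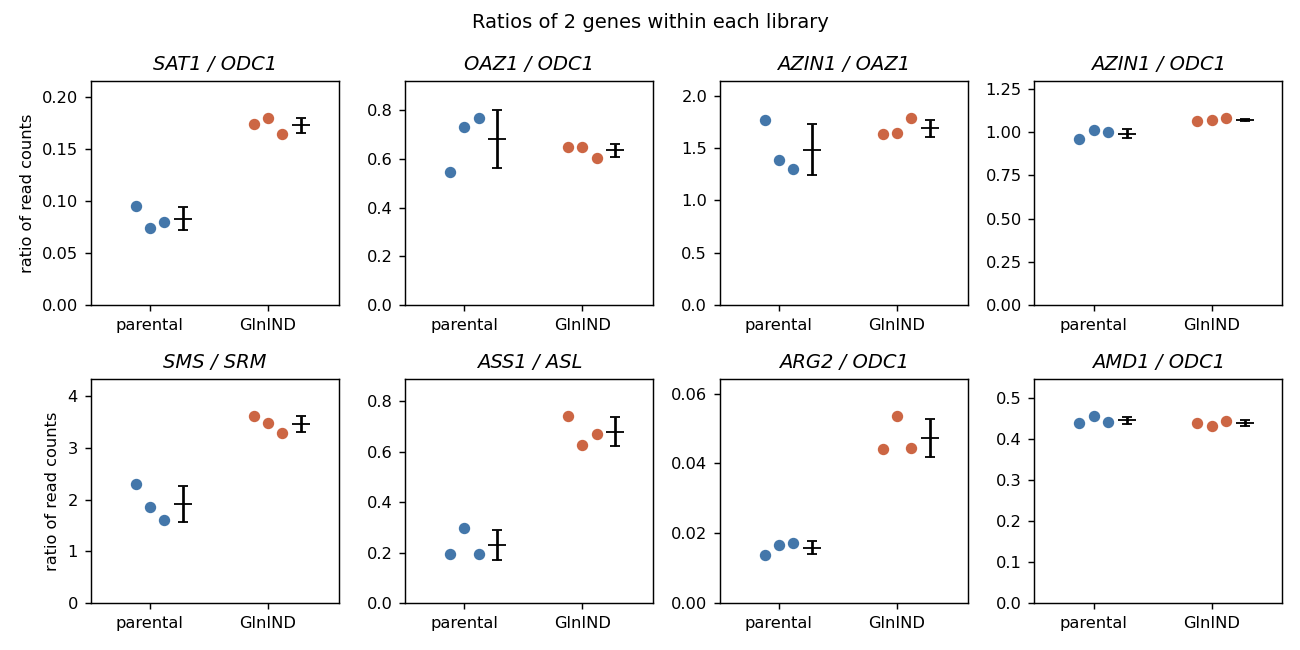
Ratio of the read counts of 2 genes within each library (vertical axes from 0, a scale for each pair); points are the 3 parental and 3 GlnIND libraries, the dash and bar the mean ± SD. SAT1 to ODC1, ARG2 to ODC1, SMS to SRM, ASS1 to ASL and AZIN1 to ODC1 are apart between the groups, and the AMD1 to ODC1 ratio is nearly level.

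Around the 10 genes, 44 further genes in 7 lists were examined, of which 33 could be tested. Of these 8 rose, 8 fell and 17 were not called, a median log2 fold change of 0.01 beside 0.03 for all genes. That is 16 of 33 called, where 56.3% of all genes were called. With totals alone 12 rose and 6 fell, and with upper-quartile factors 11 rose and 6 fell. Over all genes 5356 and 2810 were called higher and lower with totals alone, and 4749 and 3204 with upper-quartile factors.

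In the lists of arginine transport and use 2 of 4 and 2 of 8 tested genes were called with TMM factors, each of them lower, where 56.3% of all genes were called and 27.9% were lower. SLC7A1, the main arginine importer of the plasma membrane, fell from 317 ± 18.2 to 184 ± 4.23 CPM (SD, n = 3 each). Its log2 difference was -0.79 (edgeR adjusted p = 8.72e-06, SE 0.065). SLC25A15, which carries ornithine across the inner mitochondrial membrane, fell from 42.8 ± 2.57 to 26.4 ± 1.56 CPM (SD, n = 3 each). Cationic amino acid transport had 4 tested genes, of which 2 fell, none rose and 2 missed the threshold, with 2 more not tested, SLC7A3 at 0 counts. At an unadjusted edgeR p under 0.05, 1 transport gene, SLC25A29, was higher, and it was called higher by limma-voom, with upper-quartile factors, with totals alone and without parental 2, but not by DESeq2. The neighbours of SLC7A1 had a median of -0.43 and those of SLC25A15 of -0.27, and with these shifts removed the log2 fold changes were -0.36 and -0.43.

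Arginine, urea cycle, creatine and nitric oxide genes numbered 8 among those tested. Of them 2 fell, 0 rose and 6 missed the threshold in the edgeR test. None was higher at an unadjusted p under 0.05, nor called higher by DESeq2 or limma-voom, while 1 (OAT) was called higher with upper-quartile factors and 2 (OAT and NAGS) with totals alone. AGMAT, which is annotated as agmatinase, fell from 16.6 ± 1.8 to 7.71 ± 0.324 CPM and CPS1, which makes carbamoyl phosphate for the urea cycle, from 20.9 ± 0.929 to 11.5 ± 0.33 CPM (SD, n = 3 each). OAT, which links ornithine to glutamate semialdehyde, was at 182 ± 19.5 and 198 ± 4.37 CPM (SD, n = 3 each, edgeR adjusted p = 0.204), and ALDH18A1, which makes that semialdehyde from glutamate, at 159 and 160.5 CPM. With the GC trend removed OAT was called higher (0.27, adjusted p = 0.0189). OAT, ALDH18A1, NAGS and SLC25A29 are named outside the fixed rule, after their values were seen. OTC, which would turn ornithine into citrulline, had 1 count in all libraries, NOS1 and NOS2 had 0, and NOS3 had 13.

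Methionine salvage recovers the methylthio group released by SRM and SMS and starts with MTAP. MTAP had 0 counts in the parental libraries and in GlnIND 1 and 3, and 6 in GlnIND 2, too few to test. Among the other genes of salvage and S-adenosylmethionine supply 3 of 6 tested genes rose, 2 fell and 1 was not called. Over all tested genes 28.4% were called higher and 27.9% lower. MRI1, the isomerase after MTAP, rose from 19 ± 0.777 to 34.4 ± 0.972 CPM and ENOPH1, a later enzyme, fell from 130.4 ± 9.15 to 77.1 ± 4.06 CPM (SD, n = 3 each). Their log2 fold changes were 0.85 and -0.76, and 0.46 and -0.50 with the shift of their neighbours removed. Named after their values were seen, MAT2A and MAT2B, the subunits of the S-adenosylmethionine synthetase, rose by 0.25 and 0.28 on the log2 scale, and APIP fell by 0.46. The MAT2A groups overlapped (parental 1 at 414.8 and GlnIND 1 at 407 CPM), and its call was lost with DESeq2 (adjusted p = 0.0508) and without parental 2, parental 3, GlnIND 2 or GlnIND 3 (0.18 to 0.23, adjusted p = 0.112 to 0.172). MAT2B lost its call without GlnIND 1 (0.24) or GlnIND 3 (0.26). After removal of the neighbour shift MAT2B (0.14) and APIP (-0.17) were not called. With totals alone MAT2A and MAT2B were at 0.41 and 0.44 and APIP at -0.30, and with the GC trend removed MAT2B was at 0.47 and APIP at -0.29.

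Spermidine is also the donor for hypusine, a modified lysine of the translation factor eIF5A. DHPS, which starts that modification, rose from 53.6 ± 8.36 to 75.6 ± 1.16 CPM and EIF5A2 from 64.2 ± 8.54 to 90.8 ± 7.32 CPM (SD, n = 3 each). The more abundant EIF5A, named after its values were seen, fell by 0.43 on the log2 scale, with parental 1 at 723 CPM inside the GlnIND range of 712 to 746 CPM and parental 2 and 3 at 1103 and 1115 CPM. The EIF5A call (edgeR adjusted p = 0.0262) was lost with upper-quartile factors (-0.34, adjusted p = 0.0725), with totals alone (-0.28, adjusted p = 0.137) and with any library but parental 1 left out (-0.45 to -0.34, adjusted p = 0.0558 to 0.0853), and the value was -0.79 with the neighbour shift removed. Of 4 hypusine genes 2 rose, 1 fell and 1 was not called, where 28.4% of all tested genes were called higher and 27.9% lower. With the shift of its neighbours (0.43) removed DHPS stood at 0.07 (adjusted p = 0.638).

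Among the other genes of breakdown and antizyme control 1 of 3 tested genes in each list was called, beside 56.3% of all genes. PAOX, which oxidises acetylated polyamines made by SAT1, rose from 2.35 ± 0.878 to 4.15 ± 0.772 CPM and AZIN2, a further antizyme inhibitor, from 5 ± 1.85 to 8 ± 1.08 CPM (SD, n = 3 each). Their edgeR adjusted p were 0.0327 and 0.0423. Their log2 fold changes were 0.83 and 0.69. PAOX no longer passed with GlnIND 1 or GlnIND 2 left out, at 0.73 and 0.74 (adjusted p = 0.112 for each). AZIN2 no longer passed with GlnIND 1, 2 or 3 left out, at 0.75, 0.71 and 0.56 (adjusted p = 0.0725, 0.094 and 0.161). Without parental 1 both were called at smaller values, 0.52 for PAOX and 0.39 for AZIN2. Both calls were lost with the neighbour shift removed (0.47 and 0.63, adjusted p = 0.2 and 0.0663) and with the GC trend removed (0.58 and 0.51, adjusted p = 0.114 and 0.119). The spermine oxidase SMOX, at 12.9 and 13.4 CPM, was not called. SAT2, named after its values were seen, was not called at 0.25 on the log2 scale (edgeR adjusted p = 0.111), but was called higher with upper-quartile factors (0.34), with totals alone (0.40) and without parental 2 (0.35).

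In the list of polyamine transport 1 of 5 tested genes rose, 1 fell and 3 were not called. The shares over all tested genes were 28.4% higher and 27.9% lower. SLC18B1, a vesicular polyamine transporter, rose from 16.8 ± 1 to 24.6 ± 2.67 CPM (SD, n = 3 each), or by 0.56 on the log2 scale. ATP13A3, a polyamine-transporting ATPase, had a log2 fold change of -0.16 (edgeR adjusted p = 0.0479). Its call was lost with upper-quartile factors (adjusted p = 0.367), with totals alone (0.957), without the filter on low counts (0.0616) and without parental 2, parental 3, GlnIND 1, GlnIND 2 or GlnIND 3 (0.0503 to 0.16), and its sign turned to 0.10 with the GC trend removed.

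**Figure D4:**
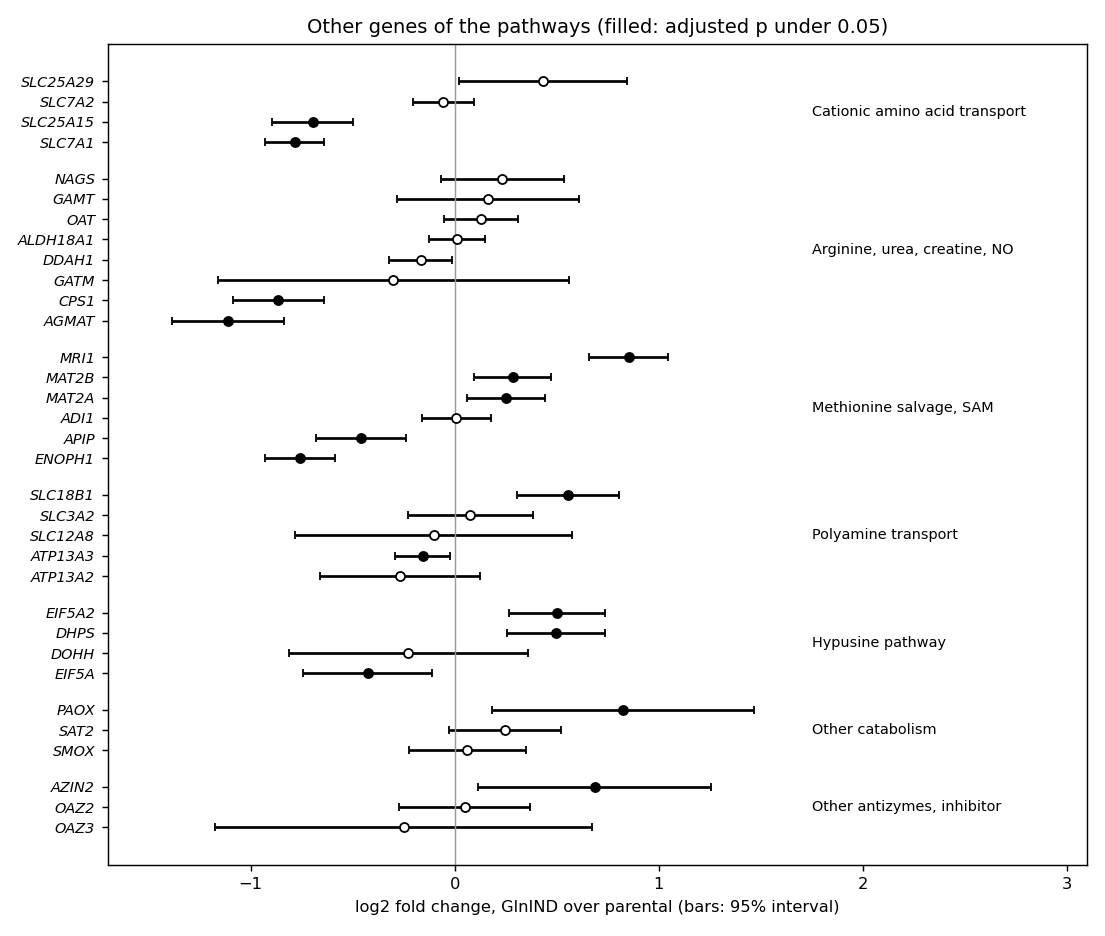
Log2 fold change, GlnIND over parental, of the 33 tested genes in 7 lists around the 10 genes (points, filled where the adjusted p was under 0.05; bars are 95% intervals). AGMAT, CPS1, SLC7A1, ENOPH1 and SLC25A15 lie farthest to the left, and MRI1 and PAOX farthest to the right.

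Over the 6 libraries the genes with profiles closest to ARG2 were UBA7, CELSR1 and EVA1C, at Euclidean distances of 0.174, 0.202 and 0.218 on the centred log2 CPM scale, out of 10582 candidates with a mean of at least 5 CPM. Those closest to SRM were OTUB2, NSMF and LAPTM4B, at 0.0734, 0.0907 and 0.104. With 2 groups of libraries such likeness mostly reflects a difference between the groups of the same size.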

How the data were processed

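RNA counts of 3 parental and 3 GlnIND libraries of an established cell line were analysed. Raw counts by gene symbol were deposited by the authors, as 1 table per library and 1 matrix. Per the submitters' processing notes, FastQC, STAR, featureCounts and DESeq were used with genome build hg19. Their versions, the annotation, and how strand and multiply mapped reads were handled are not given in the sources used here. The matrix held the same values as the tables, with the names of replicates 1 and 3 exchanged within each group, and replicate numbers here follow the tables.

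The deposited counts entered edgeR's quasi-likelihood test (version 4.0.16, R 4.3.3, two-sided, TMM factors, filterByExpr with a minimum count of 10 and total of 15, group as the design), with Benjamini-Hochberg adjustment over 13949 genes, which held 99.94% of all counts. The procedure was tested on simulated data in which few genes changed, equally up and down. That setting does not bear on the calls that depend on the scaling. SE is the log2 fold change divided by the square root of F. The 10 genes, the lists around them, the ratios and the tests were chosen with earlier results of these data known. Named genes were the 10, the 2 called genes of each list with the largest change and a mean of at least 1 CPM, and the 3 genes nearest in profile to the members with the highest and the lowest change. Alternatives were RLE and upper-quartile factors, library totals, other filters, each library left out, a replicate block, DESeq2 1.42.0, limma-voom (limma 3.58.1), stricter thresholds, the matrix, and removal of the median log2 fold change of 40 neighbouring genes (20 on each side, gene order of RefSeq GRCh38.p14). Removal of a GC trend, with GC content known for 97.1% of tested genes, was chosen after seeing the data. Neither removal carries the error of the removed shift. DDAH2 and MTAP, like other genes with under about 10 counts a library, were not tested.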

Additional observations from a re-analysis of the deposited data

How the results depend on the processing

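SRM, SAT1, ARG2 and ASS1 kept their direction under all 19 alternatives, and SRM, SAT1 and ASS1 lost the call with glmTreat alone. With glmTreat at a log2 threshold of 1, 1006 genes were called (656 higher, 350 lower), 1 of the 10 (1 higher, 0 lower) and 0 of the other pathway genes (0 higher, 0 lower, and 0 at an unadjusted p under 0.05). With upper-quartile factors 2 of the 10 were called lower, and with library totals 1, beside 3204 and 2810 of all genes. With an adjusted p under 0.01 the called pathway genes numbered 10 (4 higher), beside 5851 of all genes (2855 higher). With the neighbour shift removed 5 pathway genes were higher and 9 lower, beside 3320 and 3504 of all genes. Leaving out each library in turn gave 6 to 10 of the 10 called (3 to 4 higher, 3 to 6 lower), 11 to 20 of the other pathway genes (5 to 9 higher, 6 to 12 lower) and 6516 to 9280 of all genes. The sign turned for SMS without parental 3 (-0.029, with -0.029 to 0.107 over the libraries left out), with the neighbour shift removed (-0.33) and with the GC trend removed (-0.002), for ASL with the neighbour shift removed (0.22), for AZIN1 with library totals (0.047), the neighbour shift removed (0.042) and the GC trend removed (0.013), and for ATP13A3 with the GC trend removed (0.095). Among uncalled genes it also turned for ALDH18A1 with RLE factors (-0.004), DESeq2 (-0.007), the GC trend removed (-0.038) and parental 1 or GlnIND 1 left out (-0.038 to 0.015 over the libraries left out), for NAGS and SMOX with the neighbour shift removed (-0.255 and -0.137) and the GC trend removed (-0.005 and -0.131), for SMOX without parental 1 or GlnIND 3 (-0.032 to 0.13 over the libraries left out) and for SAT2 with the neighbour shift removed (-0.101). The cause of these changes was not tested.

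Same-numbered libraries did not deviate together (correlations of -0.063, 0.03 and -0.037 across genes), and nothing in the labels pairs them. With the replicate number as a block 7303 genes and 6 of the 10 were called, with OAZ1 not among them (adjusted p = 0.0619), and 14 of the other pathway genes, with ATP13A3 (adjusted p = 0.0974) and MAT2A (adjusted p = 0.0565) not among them. At 58 to 255 counts a library, ASS1 is the least precisely counted of the 10.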
